A study of Mus musculus with 17 samples.

Results

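The kidney makes ammonia from glutamine and returns new bicarbonate to the blood, and 9 genes of that work were followed in diabetic mouse kidneys. They were Slc38a3, Glud1, Glul, Rhcg, Rhbg, Slc4a4, Slc9a3, Car2 and Car4, taken by symbol from a table of 55487 mouse gene identifiers, and all 9 had enough counts to be tested. They were selected on their role and with the fold changes and adjusted p-values of db/db against db/m kidneys in these same libraries known, among which Slc38a3 stood out, and no threshold was set for them. Their fold changes and adjusted p-values are therefore given as a description of these animals and not as independent evidence.

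The samples were kidney tissue from 9 db/db and 8 db/m males at 16 weeks of age, with a single library made from each mouse. The db/db animals carried the leptin receptor mutation Leprdb on both chromosomes, lack the long form of the leptin receptor in every cell, and become obese and diabetic. The db/m animals, a lean control in common use, carried 1 copy of it. Titles, library names and the stated group sizes give these groups. In the genotype field, however, all 17 samples bear the other group's genotype, and were that entry correct each direction given here would be turned round. The db/m libraries bear the lower library numbers and the db/db libraries the higher ones, so that any handling tied to these numbers cannot be told apart from genotype. Blood pH, plasma bicarbonate and urinary ammonia of the animals were not analysed here.

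RNA was read from the 3′ end of polyadenylated transcripts, so that long transcripts do not gather more counts than short ones. Gene counts per library ran from 3256427 to 7627747, and values are CPM, the gene's counts per 1e6 counts of the library, scaled by TMM, a method that corrects library totals for differences in composition. Of the 9 genes, Slc38a3 had the fewest counts in any 1 library, 24. A principal component analysis of log2 CPM gave a first component with 32.8% of the variance, which ran across both groups. Its farthest libraries were db/db replicates 7 and 8 at one end and db/m replicates 4 and 8 at the other. Almost as far out as db/m replicate 4 (-41.9) was db/db replicate 1 (-40.6), which was kept. Leaving out the 4 libraries thus takes db/db kidneys only from the high end and db/m kidneys only from the low end. By itself that can shift the difference of genes that follow the component. Values without these 4 libraries are given below for the 9 genes, and for other genes where the call or the size of the difference moved. Proximal tubule markers were abundant (8 markers of segments S1 and S2 summed to 5886 to 8403 CPM in db/db and 6241 to 8412 CPM in db/m), as the kidney label implies.

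In the proximal tubule, glutamine is taken up from blood and filtrate and stripped of its nitrogen in mitochondria, where glutamate dehydrogenase (Glud1) acts on the glutamate formed. The carbon skeleton goes on through phosphoenolpyruvate carboxykinase (Pck1), and each round leaves ammonium for the urine and bicarbonate for the blood. Ammonium is secreted partly by the sodium-proton exchanger NHE3 (Slc9a3), and is later moved across the collecting duct by the Rh glycoproteins Rhcg and Rhbg. In rodents given an acid load, Slc38a3, glutamate dehydrogenase and Pck1 are known to increase in kidney, while glutamine synthetase (Glul), which uses ammonia up again, is known to decrease.

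The glutamine transporter Slc38a3 differed most. Slc38a3 (SNAT3), which carries glutamine across the basolateral membrane of proximal tubule cells, lay at 27.0 CPM in the lowest db/db kidney, at a median of 57.9 and at 69.4 in the highest, against 5.84, 10.3 and 15.0 CPM in db/m. The groups did not overlap. Across all 12131 genes tested, 0.734% lay wholly above db/m in the same way. The log2 fold change was 2.46 (SE 0.18), or 5.50-fold with a 95% interval of 4.23 to 7.15 (edgeR quasi-likelihood F-test, Benjamini-Hochberg adjusted p = 1.43e-08; n = 9 and 8). The SD was 11.7 CPM in db/db and 2.76 CPM in db/m. Only 9 tested genes had a larger positive fold change. Set against the summed S1 and S2 markers, Slc38a3 stood at 0.773 ± 0.184 CPM per 100 CPM of markers in db/db and 0.146 ± 0.0491 in db/m (SD). Bulk counts cannot tell more RNA per cell from more cells of a type, for this gene or any other here.

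Of the 9 genes, 5 were called higher and 1 lower in db/db at an adjusted p under 0.05. Over all genes tested, 3.91% were called higher and 3.49% lower, 7.39% in all. Since the genes were chosen with this comparison known, nothing is read from that contrast. The median log2 fold change was 0.63 over the 9 genes and 0.00 over all genes tested. Without the 4 libraries named above the counts were again 5 and 1, but Rhcg lost its call and Glul gained one. Slc38a3 was then at 2.38, Glud1 at 1.05, Car2 at 0.82, Slc4a4 at 0.24 and Car4 at -0.71 on the log2 scale, and the other 4 genes are given with their values below. The coefficient of variation was larger in db/db than in db/m for 8 of the 9 genes, Slc38a3 being the exception (21.3% in db/db and 27.6% in db/m), a difference that was not tested.

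**Figure D1:**
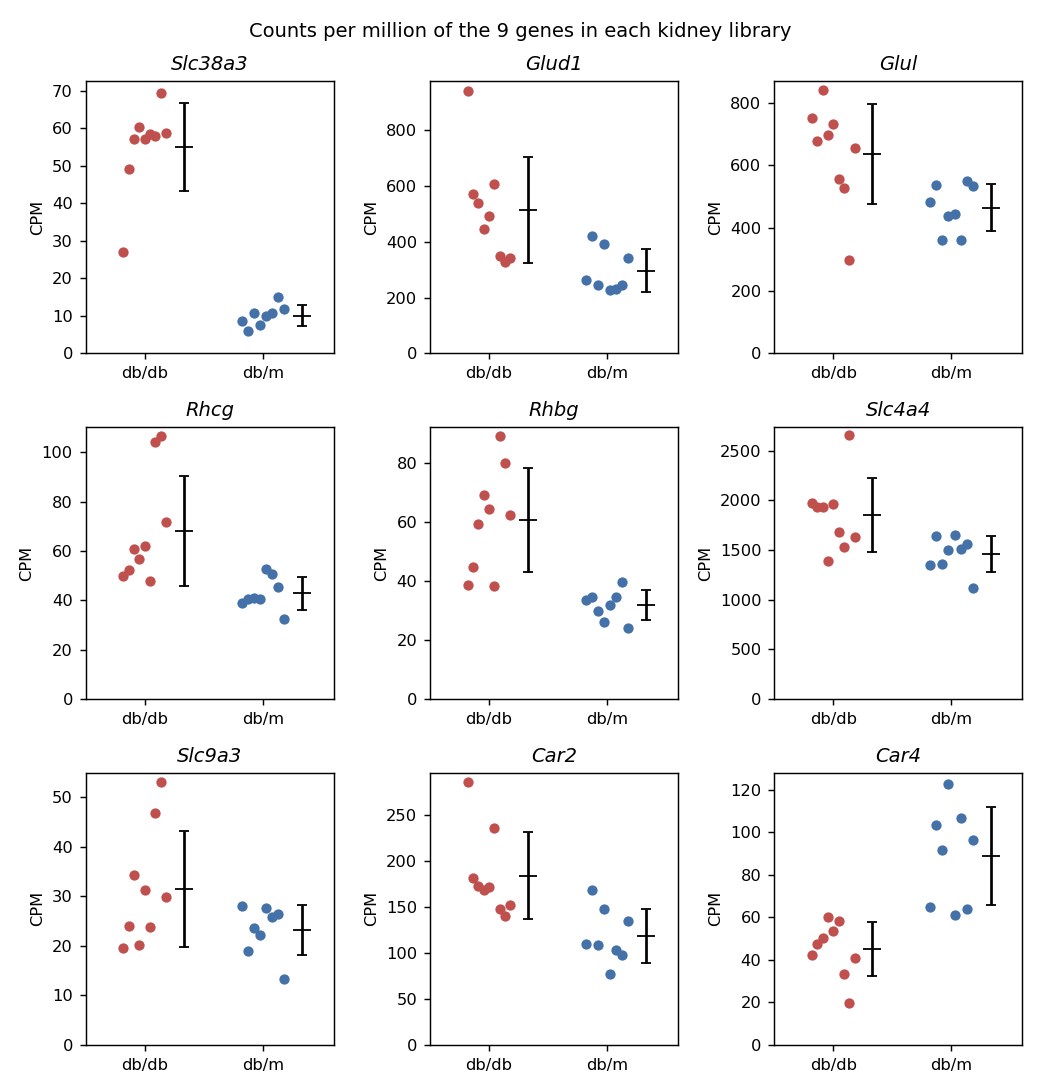
Each panel shows 1 gene, with CPM on the vertical axis from 0, 1 point per kidney (db/db left, n = 9; db/m right, n = 8) and the mean with its SD as a bar beside the points. The db/db points lie wholly above db/m for Slc38a3 (27.0 to 69.4 against 5.84 to 15.0 CPM) and wholly below for Car4, while the groups overlap for the other 7 genes.

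The mitochondrial enzyme of glutamate breakdown was also higher. Glud1, which releases ammonia from glutamate in mitochondria, lay between 328 and 940 CPM in db/db (median 492) and between 229 and 422 CPM in db/m (median 254). In 6 of 9 db/db kidneys it was above every db/m kidney, and db/db replicate 1 was highest. Means were 513 ± 191 CPM in db/db and 296 ± 77.2 CPM in db/m (log2 fold change 0.79, SE 0.20; edgeR adjusted p = 0.0141).

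Glul, glutamine synthetase, lay between 297 and 842 CPM in db/db (median 678) and between 363 and 549 CPM in db/m (median 465). In 7 of 9 db/db kidneys it exceeded every db/m kidney, while db/db replicate 8 was below them all. It did not pass the threshold (0.46, SE 0.16, 95% interval 0.13 to 0.78; edgeR adjusted p = 0.0841). Without db/db replicate 8 it was at 0.55 and passed (edgeR adjusted p = 0.00376). Without the 4 libraries at the ends of the first component it was at 0.62 (edgeR adjusted p = 0.00291).

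Pck1 varied more between animals of a group than between groups. It lay between 554 and 6858 CPM in db/db (median 1040) and between 523 and 3515 CPM in db/m (median 965), at a log2 fold change of 0.33 (SE 0.46; edgeR adjusted p = 0.741). The highest kidney was db/db replicate 1, which had the lowest Slc38a3 of its group, and without it the Pck1 value was -0.29 (SE 0.33). Without the 4 libraries at the ends of the first component it was 1.19 (SE 0.43; edgeR adjusted p = 0.107), so that neither a direction nor a size was fixed by these kidneys.

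Of the Rh glycoproteins, Rhbg, which sits mainly on the basolateral side of intercalated and other collecting duct cells, was higher in db/db. Its lowest, median and highest values were 38.2, 62.2 and 88.9 CPM in db/db and 23.9, 32.7 and 39.7 CPM in db/m. In db/db, 7 of 9 kidneys lay above every db/m kidney. The log2 fold change was 0.93 (SE 0.16; edgeR adjusted p = 0.000739), and 0.66 without the 4 libraries named above. Rhcg, the apical and basolateral Rh channel of the same cells, lay at 48, 60.8 and 106.6 CPM in db/db and at 32.4, 40.9 and 52.8 CPM in db/m (0.67, SE 0.16; edgeR adjusted p = 0.0141). In db/db, 6 of 9 kidneys lay above all of db/m. Its highest values, 104.0 and 106.6 CPM, belonged to db/db replicates 7 and 8, the same libraries that lay farthest out on the first component. Without the 4 libraries at its ends, Rhcg was at 0.35 (SE 0.12; edgeR adjusted p = 0.0735).

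Some markers of the cells that carry Rhcg and Rhbg were higher as well. Of 11 intercalated cell markers, 4 rose and 7 did not pass, with Slc26a4 and Kit below 0 (-0.15 and -0.14). Those that rose were Aqp6 (0.72, edgeR adjusted p = 0.0252), the proton pump subunits Atp6v1g3 (0.49, edgeR adjusted p = 0.00590) and Atp6v0d2 (0.57, edgeR adjusted p = 0.0138) and the exchanger Slc4a1, and no marker was at 0. The summed level of all 11 was 320 to 421 CPM in db/db and 227 to 304 CPM in db/m. Per 100 CPM of these markers, Rhbg stood at 15.8 ± 3.48 CPM in db/db and 11.5 ± 1.04 in db/m, and Rhcg at 17.9 ± 4.87 in db/db and 15.6 ± 1.98 in db/m (SD). These SDs are the spread between kidneys, and the groups were not tested on that scale. The summed markers lean on Atp6v1g3 and Aqp6, both among those that rose. In db/db their means were 98.6 and 94.8 CPM, of a mean sum of 378 CPM. Principal cell markers rose in 4 of 8 cases and fell in 1, and distal convoluted and connecting tubule markers rose in 4 of 6. The share over all genes tested was 3.91% called higher and 3.49% called lower. The part of these cells in the Rh values was not tested.

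**Figure D2:**
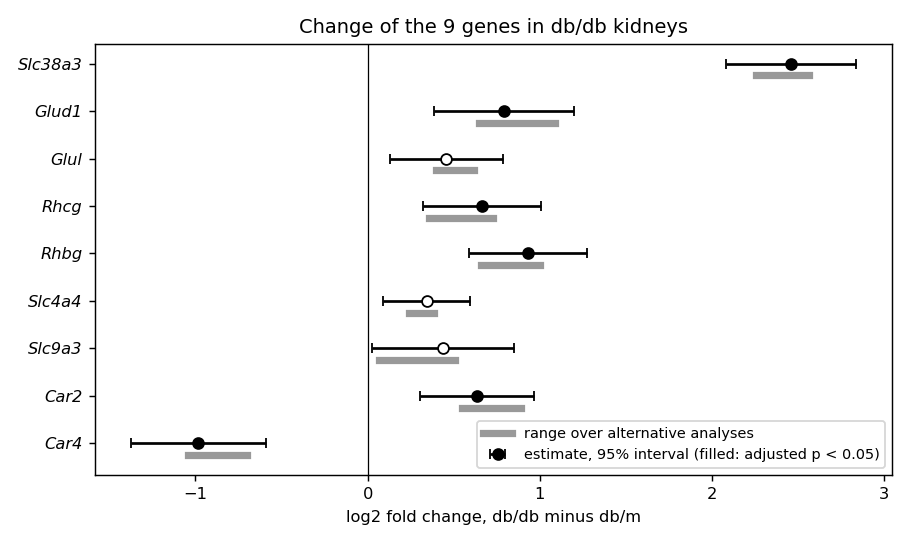
Points give the log2 fold change of each gene, db/db minus db/m, with its 95% interval. Filled points have an adjusted p under 0.05, and grey bars span the values over the alternative analyses. Slc38a3 stands alone near 2.46, Car4 is the gene below 0, and the grey bars of Rhcg and Slc9a3 reach down to 0.35 and 0.06.

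Bicarbonate is reclaimed in the proximal tubule by proton secretion through NHE3, by carbonic anhydrases on both sides of the apical membrane, and by exit through the sodium-bicarbonate cotransporter NBCe1 (Slc4a4). Neither transporter passed the threshold. Slc4a4 lay between 1387 and 2663 CPM in db/db (median 1931) and between 1114 and 1653 CPM in db/m (median 1507), at 0.34 (SE 0.12, 95% interval 0.09 to 0.60; edgeR adjusted p = 0.0970). With library totals in place of TMM it was at 0.38 and passed (edgeR adjusted p = 0.0325). Slc9a3 lay between 19.7 and 53.0 CPM in db/db (median 29.8) and between 13.4 and 28.1 CPM in db/m (median 24.6), at 0.44 (SE 0.20, 95% interval 0.02 to 0.85; edgeR adjusted p = 0.210). Its highest kidneys were again db/db replicates 7 and 8, and without the 4 libraries named above the value was 0.07.

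The pair of carbonic anhydrases went opposite ways. Car4, which is anchored on the outer face of the brush border, had its lowest, median and highest values at 19.9, 47.5 and 60.1 CPM in db/db and at 61.1, 94.0 and 122.8 CPM in db/m. The groups did not overlap, as was so for 1.05% of all tested genes in that direction. Means were 45.1 ± 12.7 CPM in db/db and 88.9 ± 23.02 CPM in db/m (-0.98, SE 0.19; edgeR adjusted p = 0.00168). Per 100 CPM of S1 and S2 markers, Car4 stood at 0.638 ± 0.207 CPM in db/db and 1.26 ± 0.317 in db/m (SD). Of 6 endothelial markers, a second cell type known to carry Car4, 0 were called by edgeR or DESeq2, and 1 had an unadjusted p under 0.05 with either tool (318 to 446 CPM summed in db/db, 326 to 449.5 in db/m).

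Car2, the cytosolic enzyme of proximal tubule, intercalated cells and red blood cells, lay between 140 and 285 CPM in db/db (median 172) and between 76.9 and 168 CPM in db/m (median 109). In 6 of 9 db/db kidneys it was above every db/m kidney (0.63, SE 0.16; edgeR adjusted p = 0.0160). Of 5 red blood cell markers 0 were called by edgeR or DESeq2 (0 and 1 at an unadjusted p under 0.05), with sums of 1142 to 7824 CPM in db/db and 1921 to 3857 CPM in db/m. Per 100 CPM of intercalated cell markers, Car2 stood at 50.0 ± 18.01 CPM in db/db and 43.8 ± 13.1 in db/m (SD). The part of intercalated cells in the Car2 value was not tested.

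Markers of the last proximal segment, S3, were lower: 6 of 8 fell and 1 rose, with sums of 2178 to 3211 CPM in db/db and 3772 to 4825 CPM in db/m. Of 8 S1 and S2 markers 1 rose, the glucose transporter Slc5a2 (0.46, edgeR adjusted p = 0.0276). With edgeR and with DESeq2, 4 of the 8 had an unadjusted p under 0.05. These were Slc5a2, Slc5a12 (0.38) and Slc13a3 (0.31) above 0 and Lrp2 (-0.50) below. Of 6 thick limb markers 1 rose and 1 fell, and of 5 podocyte markers 2 rose. Beside these counts, 3.91% of all genes tested were called higher and 3.49% lower. Of 3 immune markers tested 1 fell, Ptprc (-1.49), and Cd79a was at 0. All 3 had an unadjusted p under 0.05 with edgeR and with DESeq2, Cd74 at -0.63 and Csf1r at -0.53. Of 4 fibroblast and 4 adipocyte markers tested, 0 were called by edgeR or DESeq2, with 1 fibroblast and 0 adipocyte markers at an unadjusted p under 0.05 by edgeR and 1 of each by DESeq2. All 6 adipocyte markers listed summed to 6.81 to 332 CPM in db/db (median 31.3) and 2.78 to 308 CPM in db/m (median 24.6). Adipoq, Plin1 and Plin4 were highest in db/db replicate 9 and db/m replicate 8. Of the db/m kidneys, replicate 8 also had the highest Pck1 and the lowest Rhcg, Rhbg, Slc4a4 and Slc9a3. The part of adipose tissue in these values was not tested. How far segment content enters the values of Slc38a3, Glud1, Glul or Car4 was not tested.

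The windows before the annotated start are shown for the 3 called genes that have an entry in RefSeq's promoter table (build GRCm38.p6), since their direction differed. Each line gives the 250 bases before the start, 5′ to 3′ on the gene's strand. Capitals mark the GC box GGGCGG on either strand, the motif most often found among these genes.
Glud1, chr14:34310477-34310726, forward strand: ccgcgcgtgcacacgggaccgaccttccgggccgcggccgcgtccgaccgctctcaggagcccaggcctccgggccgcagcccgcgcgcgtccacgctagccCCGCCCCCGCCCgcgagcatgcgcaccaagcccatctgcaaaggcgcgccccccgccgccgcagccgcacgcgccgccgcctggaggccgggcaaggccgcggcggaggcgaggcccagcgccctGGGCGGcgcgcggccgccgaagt
Rhcg, chr7:79617658-79617907, reverse strand: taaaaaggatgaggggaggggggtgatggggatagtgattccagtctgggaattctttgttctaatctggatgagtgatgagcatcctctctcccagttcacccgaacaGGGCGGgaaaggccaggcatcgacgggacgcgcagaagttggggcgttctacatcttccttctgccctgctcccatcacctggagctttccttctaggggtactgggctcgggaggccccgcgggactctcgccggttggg
Car4, chr11:84957504-84957753, forward strand: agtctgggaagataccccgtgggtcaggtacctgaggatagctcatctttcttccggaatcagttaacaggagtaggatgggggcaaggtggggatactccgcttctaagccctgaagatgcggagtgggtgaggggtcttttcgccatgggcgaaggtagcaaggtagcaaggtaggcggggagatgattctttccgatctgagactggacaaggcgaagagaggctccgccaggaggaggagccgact
A GC box was found in the windows of Glud1 and Rhcg and not in that of Car4, and in 32.7% of all 32851 windows in the table. Of the 9 genes, 6 had entries, 1 of them with 2 starts (Slc4a4), and 5 of the 7 windows held a GC box. The E-box CACGTG was found in the window of Slc9a3 and in 6.02% of all windows. The TATA box TATAAA was in none of the 7 windows and in 12.4% of all, and CCAAT in 2 of 7 (Glul and 1 start of Slc4a4) and in 33.8% of all. The cyclic AMP response element TGACGTCA was in none of the 7 and in 1.55% of all. A direct repeat of AGGTCA with 1 base between, known from nuclear receptor sites, and the HNF1 palindrome were in none of the 7, and in 0.0335% and 0.00913% of all. Both strands were searched. Such matches describe the letters only, and 3′ counts do not show which start was used.

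The other genes of the same pathways were taken from 6 lists, 90 genes in all without the 9 above, of which 69 had enough counts. Of the 69, 14 rose and 3 fell, with a median log2 fold change of 0.21, against 3.91% higher, 3.49% lower and a median of 0.00 over all genes tested. These lists were also chosen with earlier results of these data known, so nothing is read from that contrast. Among genes of glutamine and glutamate handling, 8 of 24 rose and 1 fell. Among them, the neutral amino acid transporter Slc6a19, which takes up glutamine from the filtrate, rose to 332 ± 63.2 CPM in db/db, against 174 ± 48.2 CPM in db/m (0.93, SE 0.16). The glutamine transporter Slc38a2 rose as well (106 ± 37.9 CPM in db/db and 56.8 ± 13.5 CPM in db/m). So did ornithine aminotransferase Oat, which feeds glutamate from ornithine (0.88, SE 0.13), and whose groups did not overlap. The aminotransferases Gpt (0.67, SE 0.14), Got1 (0.54, SE 0.13) and Got2 (0.44, SE 0.13) and proline dehydrogenase Prodh (0.48, SE 0.12) rose too, though without the 4 libraries named above Got2 was at 0.22 and Prodh at 0.41 and neither was called (edgeR adjusted p = 0.248 and 0.0568). The alanine, serine and cysteine transporter Slc1a4 fell to 10.8 ± 3.37 CPM in db/db, against 22.98 ± 3.42 CPM in db/m (-1.09, SE 0.17).

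Among 11 bicarbonate and anion transporters tested, 2 rose. These were the anion exchangers Slc4a1, of intercalated and red blood cells (30.6 ± 12.8 CPM in db/db and 17.8 ± 5.74 CPM in db/m), and Slc26a6, of the proximal brush border (16.9 ± 10.6 CPM in db/db and 7.18 ± 4.27 CPM in db/m). Both had an edgeR adjusted p near the threshold (0.0405 and 0.0403), and both lost their call without the 4 libraries at the ends of the first component (edgeR adjusted p = 0.227 and 0.236), where Slc4a1 was at 0.35 and Slc26a6 at 0.66. Of 8 genes of ammonium transport in other segments, among them the thick limb cotransporter Slc12a1 (0.23, SE 0.25), 0 were called by edgeR or DESeq2. With either tool 1 had an unadjusted p under 0.05, the sodium pump subunit Atp1b1 (0.31, SE 0.14), and Rhag was at 0 counts.

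Among 10 sodium-proton exchangers and partners of NHE3, 2 rose and 1 fell. Slc9a8 (NHE8), the other apical exchanger of the proximal tubule, fell to 31.8 ± 6.06 CPM in db/db, against 86.9 ± 22.5 CPM in db/m (-1.45, SE 0.16; edgeR adjusted p = 2.46e-06), with no overlap between the groups. The kinase Sgk1, a regulator of NHE3 and of sodium channels, rose (1.21, SE 0.27), as did the exchanger cofactor Chp1 (0.35, SE 0.10). The scaffold Slc9a3r1 (NHERF1) was at -0.18 (SE 0.13; edgeR adjusted p = 0.482).

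Among 8 other carbonic anhydrases tested, 2 rose. Car15, like Car4 a form anchored to the outer membrane face, rose (1.97, SE 0.37; edgeR adjusted p = 0.00159). It was scarce, with 248 counts over db/db and 57 over db/m, or 3.03 to 13.9 CPM in db/db and 0.231 to 2.72 CPM in db/m, without overlap. Without the 4 libraries named above it was at 1.27 (SE 0.28; edgeR adjusted p = 0.00882), and with the first component as a covariate at 1.38. Car5b, the mitochondrial enzyme, rose to 76.8 ± 12.1 CPM in db/db, against 48.8 ± 9.59 CPM in db/m (0.65, SE 0.12). The other membrane forms Car12 (0.25, SE 0.15), Car14 (0.24, SE 0.16) and Car9 (-1.17, SE 0.53; edgeR adjusted p = 0.204) did not pass. Of 10 genes of acid-base sensing and signalling, 1 fell, the glucocorticoid receptor Nr3c1 (-0.51, SE 0.14; edgeR adjusted p = 0.0217), which was at -0.37 and not called without those 4 libraries (edgeR adjusted p = 0.111).

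**Figure D3:**
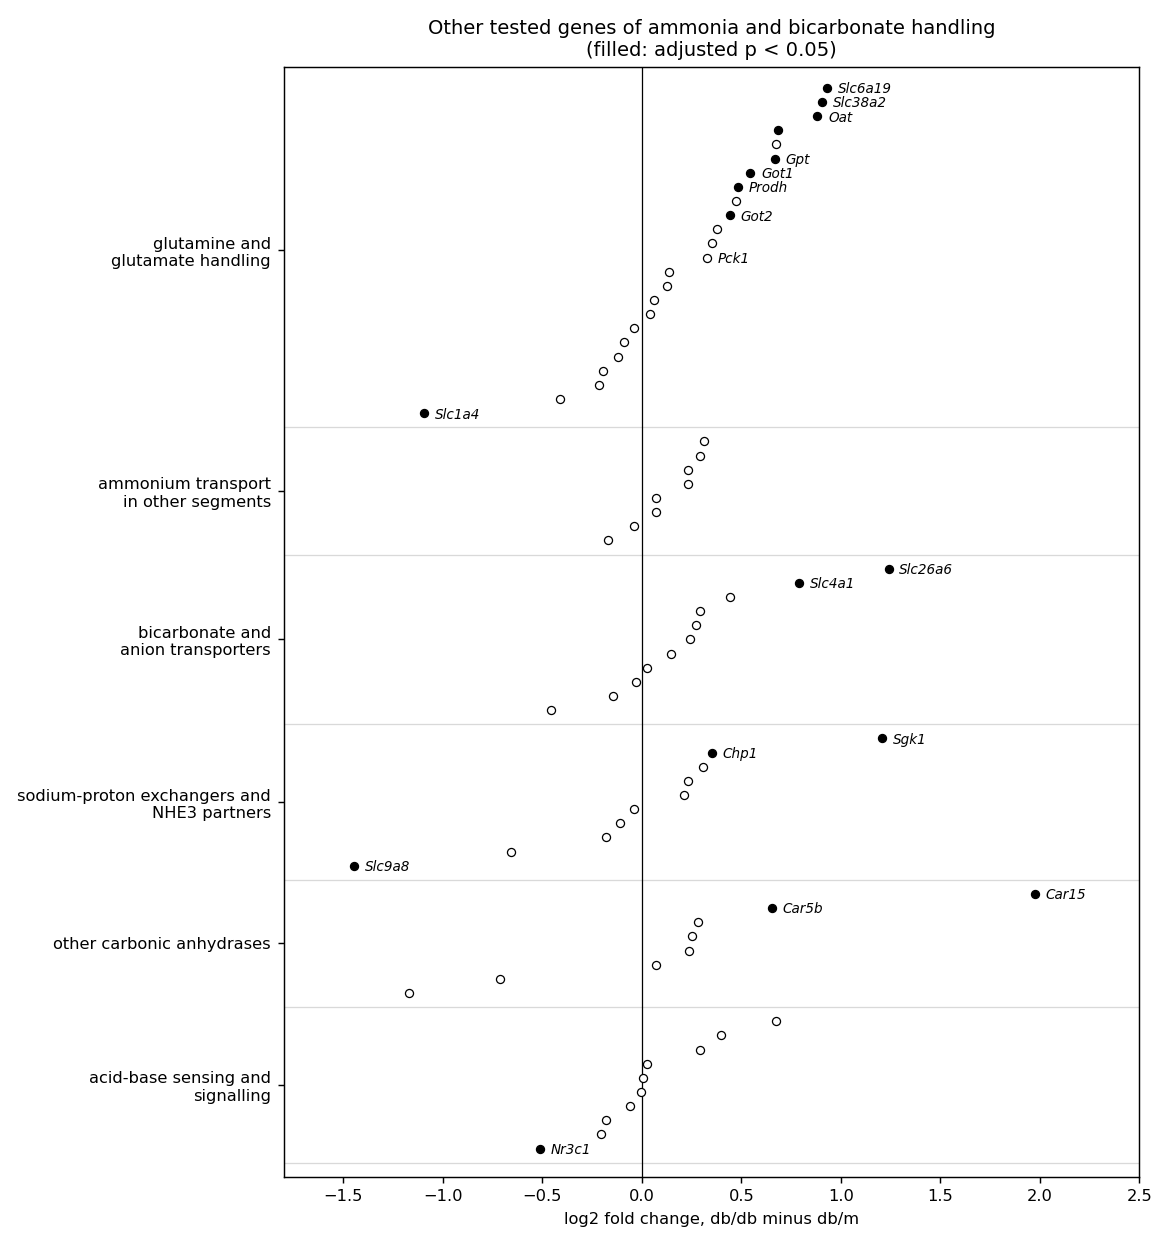
Each point is 1 tested gene of the 6 pathway lists, placed by its log2 fold change (db/db minus db/m) and sorted within its list. Filled points have an adjusted p under 0.05, and those described in the text are named, as is Pck1. In the glutamine list 8 filled points lie above 0 and Slc1a4 lies below, at -1.09.

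Within a group, the 9 genes did not vary independently. In each group 38 relations were examined, the 36 pairs among the 9 genes and Slc38a3 with Pck1 and 1 other pathway gene, and p-values were adjusted over the 76. In db/db 8 passed, and in db/m 1. The pair Glud1 and Car2 passed in both, at r = 0.95 in db/db (exact permutation p = 8.27e-06, adjusted 0.000628; rho = 0.98, exact permutation p = 4.96e-05; n = 9) and r = 0.93 in db/m (exact permutation p = 0.000174, adjusted 0.00660; rho = 0.93, exact permutation p = 0.00223; n = 8). Without the 2 libraries farthest from the median of Glud1, r was 0.84 in db/db (exact permutation p = 0.00258) and 0.82 in db/m (exact permutation p = 0.0597). By rho, 5 relations passed adjustment, 4 in db/db and Glud1 with Car2 in db/m. The 4 were Glud1 with Car2, Glud1 with Rhcg, Rhbg with Car2, and Rhcg with Car2. The last had rho = -0.93 (adjusted exact permutation p = 0.0249) but did not pass by r (-0.77, adjusted exact permutation p = 0.109). The other db/db pairs that passed by r did not pass by rho (adjusted exact permutation p = 0.0571 to 0.278).

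Rhcg ran with Slc9a3 in db/db (r = 0.92, exact permutation p = 0.00130, adjusted 0.0246; rho = 0.85, exact permutation p = 0.00607; n = 9). Without db/db replicates 7 and 8 that r was 0.68 over the remaining 7 kidneys (exact permutation p = 0.0933). Rhcg and Rhbg ran together in db/db at r = 0.86 (exact permutation p = 0.00267, adjusted 0.0338; rho = 0.87, exact permutation p = 0.00451), and at 0.81 without the same 2 libraries. Glud1 ran against Rhcg in db/db (r = -0.81, exact permutation p = 0.00447, adjusted 0.0424; rho = -0.92, exact permutation p = 0.00131), and at -0.84 without db/db replicates 1 and 8. Slc38a3 ran against Glud1 in db/db (r = -0.83, exact permutation p = 0.00426, adjusted 0.0424; rho = -0.75, exact permutation p = 0.0255). Without db/db replicates 1 and 8 that r was -0.43 (exact permutation p = 0.402), so it rested on them. Rhbg ran against Car2 in db/db (r = -0.89, exact permutation p = 0.000457, adjusted 0.0116; rho = -0.92, exact permutation p = 0.00131), and at -0.80 without db/db replicates 1 and 6. The remaining pairs that passed in db/db were Glud1 with Rhbg (r = -0.86, adjusted exact permutation p = 0.0338) and Rhcg with Car4 (r = -0.83, adjusted exact permutation p = 0.0474), the second of which fell away to -0.32 without db/db replicates 7 and 8. Slc38a3 and Pck1 gave r = -0.90 in db/db (exact permutation p = 0.0103, adjusted 0.0731; rho = -0.32, exact permutation p = 0.410), and 0.03 without db/db replicates 1 and 8, on which the value rested.

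The libraries share this order with many genes outside the pathway. Rhcg, Rhbg and Slc9a3 were high, and Glud1, Car2 and Car4 low, in db/db replicates 7 and 8, which lay at one end of the first component. In db/db, r with this component was 0.92 for Rhcg and Slc9a3, 0.83 for Rhbg, 0.74 for Slc38a3 and 0.37 for Slc4a4. It was -0.87 for Glud1, -0.86 for Car2, -0.78 for Glul and -0.76 for Car4. In db/m, r was 0.80 for Rhcg, 0.79 for Slc9a3, 0.68 for Rhbg, 0.50 for Slc38a3 and 0.49 for Slc4a4. There it was -0.92 for Car2, -0.88 for Glud1, -0.76 for Car4 and -0.21 for Glul. The part of that library-wide order in the relations above was not tested.

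**Figure D4:**
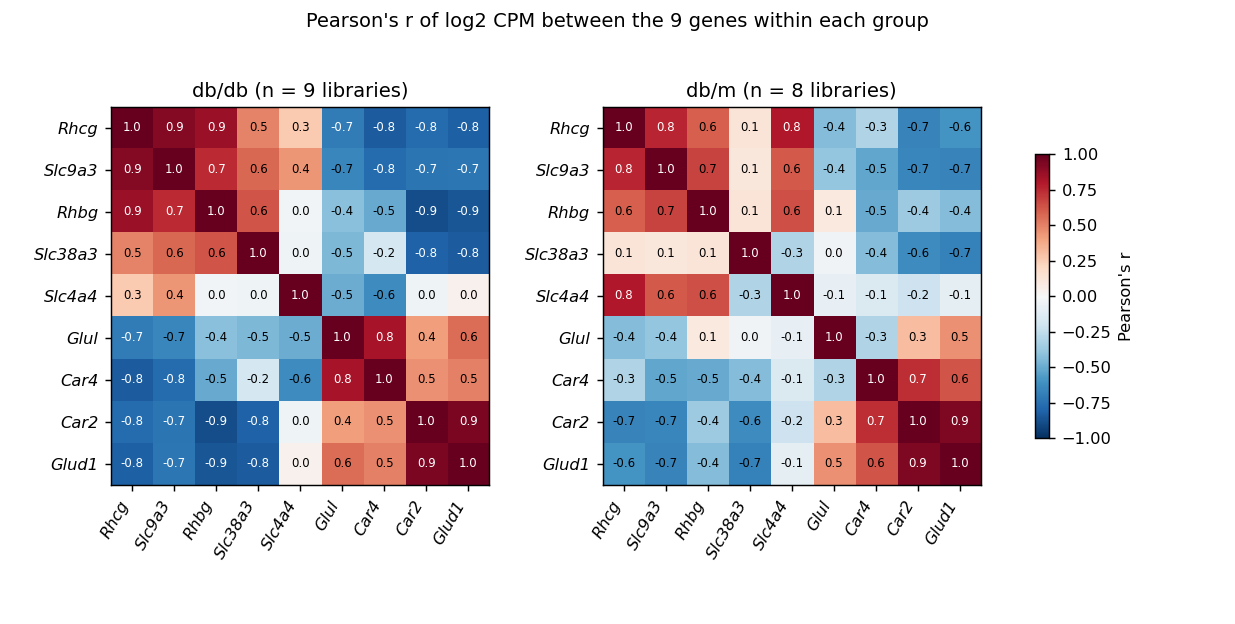
Each square gives Pearson's r of log2 CPM between 2 genes within db/db (left, n = 9) or db/m (right, n = 8), red for positive and blue for negative. In db/db, Rhcg, Slc9a3 and Rhbg form one block and Car2 and Glud1 another. In db/m, r of Rhcg is highest with Slc4a4 (0.80), above Slc9a3 (0.76) and Rhbg (0.60). The darkest square off the diagonal is at Glud1 and Car2 in both groups (0.95 in db/db and 0.93 in db/m).

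**Figure D5:**
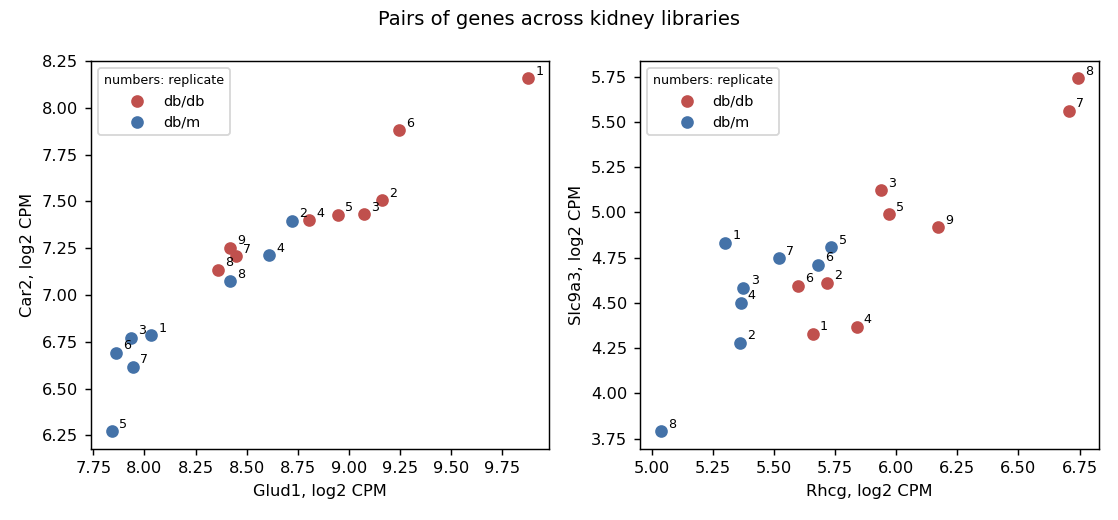
Points are kidneys, labelled by replicate number, in log2 CPM of Glud1 against Car2 (left) and of Rhcg against Slc9a3 (right). Glud1 and Car2 lie along one line through both groups, while db/db replicates 7 and 8 sit apart at the top right for Rhcg and Slc9a3.

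Genes whose values most resembled each of the 9, after group means were removed, were sought over 17 libraries among 8370 genes by Pearson's r. For Slc38a3 they were Lamb2 (0.88), Ndrg2 (0.86) and Atp2a3 (0.85). Cubn (0.97) was closest to Glud1, Sardh (0.95) to Rhcg, Map2k2 (0.94) to Rhbg and Ankrd13c (0.95) to Car2. Zfp768 (0.94) was closest to Slc9a3, Pbld1 (0.93) to Slc4a4, Ulk3 (0.91) to Car4 and Appl2 (0.89) to Glul. Cubn is also one of the S1 and S2 markers used above. Of these 9 closest genes 1 was called between db/db and db/m, Sardh (0.67, edgeR adjusted p = 0.0379), where 7.39% of all genes tested were called. Atp2a3, named above for Slc38a3 but not its closest gene, was called as well (0.80, edgeR adjusted p = 0.0397).

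In GENCODE M21, Rhcg overlaps Gm45170 on its own strand (442 counts over all libraries), Glul overlaps Teddm2 on the other strand (108 counts), and Rhbg overlaps Gm38392 (0 counts). The overlap of Rhbg is on its own strand too, and strand cannot separate reads of such same-strand pairs. For Glul and Teddm2 the outcome depends on the strand setting of the counting, which no source used here gives. Reads from these pairs may have been divided or dropped.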

How the data were processed

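Kidney RNA of 17 mice was made into 3′ libraries with a QuantSeq forward kit, per the labels' protocols, which also speak of cells in plates while the tissue field gives kidney. The values deposited are raw counts for each gene. STAR 2.7.3a and HTSeq 2.16.2 are the tools the submitters' processing notes name. The same notes list GRCh38 although the identifiers are mouse genes, while mouse build, annotation and strand setting were not given in the sources used here. No coordinates of the files were used. Of 55487 identifiers 55141 had a symbol. Reads outside genes (19.3%) and ambiguous reads (0.533%) were left out. No library was a copy of another (lowest chi-square per degree of freedom within a group 3.83).

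Counts were tested with edgeR 4.0.16 in R 4.3.3 (filterByExpr with its minimum count of 10, TMM, quasi-likelihood F-test, db/db minus db/m, no covariate), with Benjamini-Hochberg adjustment over 12131 genes and calls at 0.05. SE is the log2 fold change divided by the square root of F. Log2 CPM used a prior count of 2. Correlations used exact two-sided permutation of pairings. DESeq2 1.42.0 was an alternative, as were other scalings, no count filter, robust fitting, a replicate block and leaving out each library. Leaving out the 4 libraries farthest out on the first principal component, and that component as a covariate, were added after seeing the data. On simulated counts for this comparison (12131 genes), edgeR called 14% of genes changed by 0.5 and 72% of those changed by 1 on the log2 scale.

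The 9 genes, the pathway and marker lists and the tests were chosen with earlier results of these data known. Genes named are the 9, each called gene of the 6 pathway lists with Pck1, the genes most like each of the 9 (average log2 CPM of at least 3), and up to 3 genes of a marker list. Other pathway and marker genes named with a value that did not pass were chosen after their values were seen. One allele of the strain and 1 pathway gene that the rule would name are not reported here, though the gene is in the counts. Of the listed names, 3 older or newer synonyms were not in the table.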

Additional observations from a re-analysis of the deposited data

Results flagged for a closer look

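A kidney far from the others of its group was sought among the named genes, in 54 groups of values; chance marks about 1 in 20 groups, and 4 were found, all in db/db. Slc38a3 in db/db replicate 1 was at 27.0 CPM, below the next lowest kidney at 49.1 CPM. Pck1 in the same kidney was at 6860 CPM, above the next highest at 1936 CPM. Glul in db/db replicate 8 was at 297 CPM, below the next at 528 CPM. Prodh in db/db replicate 6 was at 97.3 CPM, below the next at 146 CPM.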

How the results depend on the processing

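The counts of called genes were set beside 9 other settings and 17 fits that left out 1 library. Of the 9 genes, 5 to 6 were called higher and 1 lower in each fit that left out 1 library, and 4 to 6 higher and 1 lower in the other settings. Over all genes, 319 to 666 were higher and 318 to 571 lower with 1 library left out (474 and 423 with all), and 10 to 14 pathway genes were higher and 3 to 4 lower (14 and 3 with all). With the replicate number as a block, and db/db replicate 9 dropped, 194 genes were higher and 231 lower, with 7 pathway genes higher, and Rhcg was not called (0.60, edgeR adjusted p = 0.110). Same-numbered kidneys did not deviate together (correlations -0.45 to 0.21, and 1 of 8 closest to its own number), so the number marks no pair. DESeq2 called 637 higher and 608 lower. Pck1 turned to -0.29 without db/db replicate 1, with -0.29 to 0.67 as its range when single libraries were dropped, and was at 0.95 (edgeR adjusted p = 0.00860) with the first component as a covariate and at 1.19 (edgeR adjusted p = 0.107) without the 4 outer libraries. The cause was not tested. With all libraries 9 correlations passed adjustment. Without the 2 farthest libraries 0 did (lowest adjusted p = 0.143), with fewer kidneys in each test, and 10 of 76 had an exact permutation p under 0.05 before adjustment. Calls of Got2, Slc4a1, Slc26a6 and Chp1 ended in 13, 11, 11 and 11 of the 17 fits that left out 1 library. Changes under 1 on the log2 scale are near the limit of these depths and group sizes.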
